A study of Arabidopsis thaliana with 6 samples.

Results

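Expansins and xyloglucan endotransglucosylase/hydrolases (XTHs) are the main proteins that loosen and remodel the primary cell wall of growing plants. The 43 genes described here were listed by family membership and locus identifier, from 33557 loci in the table. The list was made with earlier results of these data known. The 43 comprise 20 expansins (14 EXPA, 2 EXPB, 3 EXLA and 1 EXLB gene) and 23 XTH genes, TCH4 among them, and all 43 were found. A further 16 expansins and 10 XTH genes are not among them, most of which were listed at 0 in both genotypes. The genotypes compared were the quadruple mutant camta1/2/3/sid2 and the wild type (WT), both Arabidopsis thaliana of the Col-0 ecotype. Per the labels, both were grown on soil at 22 °C under a 12 h photoperiod with a light intensity between 100 and 120 µmol m-2 s-1, and the entire aerial part was taken 21 days after germination at zeitgeber time 12. The mutant carries lesions in CAMTA1, CAMTA2 and CAMTA3, which encode calmodulin-binding transcription activators, and in SID2, which encodes isochorismate synthase 1 (ICS1), an enzyme of salicylic acid synthesis. The labels name no alleles, and a sid2 single mutant or a camta mutant with intact SID2 is not analysed here, so the lesions cannot be told apart.

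Expansins act without cutting polymers: at acid pH they weaken the contacts between cellulose and the glucans that coat it, so that the wall yields to turgor. XTH enzymes cut xyloglucan chains, the main hemicellulose of Arabidopsis primary walls, and join the cut end to another chain, and a few members hydrolyse it instead. Both families hold members used in ordinary leaf growth as well as members induced by touch, cold, darkness or hormones. The genes that build and trim xyloglucan and that acidify the wall make up the rest of the pathway.

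Each genotype had 1 value per locus, in FPKM (fragments scaled to transcript length and library size), which the authors combined from 3 libraries. No difference below therefore has a replicate check, and no p-value or error is given. The log2 ratio is the mutant value minus the WT value on the scale of log2(FPKM + 1), which understates differences of genes with low values. Folds are plain ratios of FPKM. Loci with at least 1 FPKM in at least 1 genotype were analysed, which kept 18547 loci and 34 of the 43 members. All analysed loci together had a median log2 ratio of -0.06, and their 5th and 95th percentiles were -0.38 and 0.33.

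Of the targeted genes, CAMTA1, CAMTA2 and CAMTA3 had 2.68 to 6.32 FPKM in the mutant and 9.25 to 13.6 in WT, and SID2 had 3.73 in the mutant and 4.56 in WT. The 4 green tissue markers RCA, LHCB3, LHCB1.5 and TGG1 had 815 to 3121 FPKM in the mutant and 1760 to 1996 in WT. Their summed level was 6587 FPKM in the mutant and 7636 in WT, with the antenna genes LHCB3 and LHCB1.5 and the myrosinase TGG1 lower in the mutant and RCA higher. Of 6 root markers, the root hair genes EXPA7, EXPA18, XTH14 and XTH26 were listed at 0 in both genotypes. The other root markers were detected and higher in the mutant. PYK10 had 55.8 FPKM in the mutant and 51.6 in WT, and CASP1 had 1.57 in the mutant and 0.94 in WT. The summed level of all 6 was 57.4 FPKM in the mutant and 52.5 in WT. In whole shoots, fewer cells of a type and less RNA per cell cannot be told apart, and the part of the green tissue markers in the differences below was not tested.

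Most expansin and XTH genes analysed lay within 1.5-fold of their WT level, and the few beyond that mark were genes of low level, the touch gene TCH4 among them. On the log2(FPKM + 1) scale, 30 of the 34 analysed members differed by less than 1.5-fold, as did 96.2% of all analysed loci. The other 4, EXLA1, XTH23, TCH4 and XTH17, were at least 1.5-fold lower in the mutant, against 1.99% of all analysed loci. Members with a mean of at least 10 FPKM lay within 1.5-fold, yet some departed more than most loci. The log2 ratios of EXLB1 (-0.45) and XTH24 (-0.43) lay under the lower percentile of all analysed loci given above, -0.38. Those of EXPA11 (0.52) and XTH27 (0.54) lay over the upper one, 0.33. EXLA1 and XTH23 passed the 2-fold mark, as did 0.69% of all loci in this direction. With a pseudocount of 0.1, TCH4 and XTH17 passed 2-fold as well, which makes 4, against 1.11% of all loci at that setting. With a filter of 5 FPKM EXLA1 alone did, against 0.653% of all loci. XTH23 passed the filter of 1 FPKM, and EXLA1 and TCH4 that of 5 FPKM, through their WT value alone. With pseudocounts of 0.1 or 0.5, EXLA2 passed the 1.5-fold mark too, which makes 5, against 3.09% and 2.49% of all loci. No member was at least 1.5-fold higher, where 1.81% of all loci were, or at least 2-fold higher, where 0.787% were. With ratios scaled to a median of 0 over all loci, 1 member, XTH27, passed the 1.5-fold mark, as did 2.14% of all loci. By any amount, 27 members (79.4%) were lower and 7 higher, against 64.6% of all loci lower, and the median over the members was -0.17. After the same scaling 26 were lower and 8 higher, where 50% of all loci were lower.

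**Figure D1:**
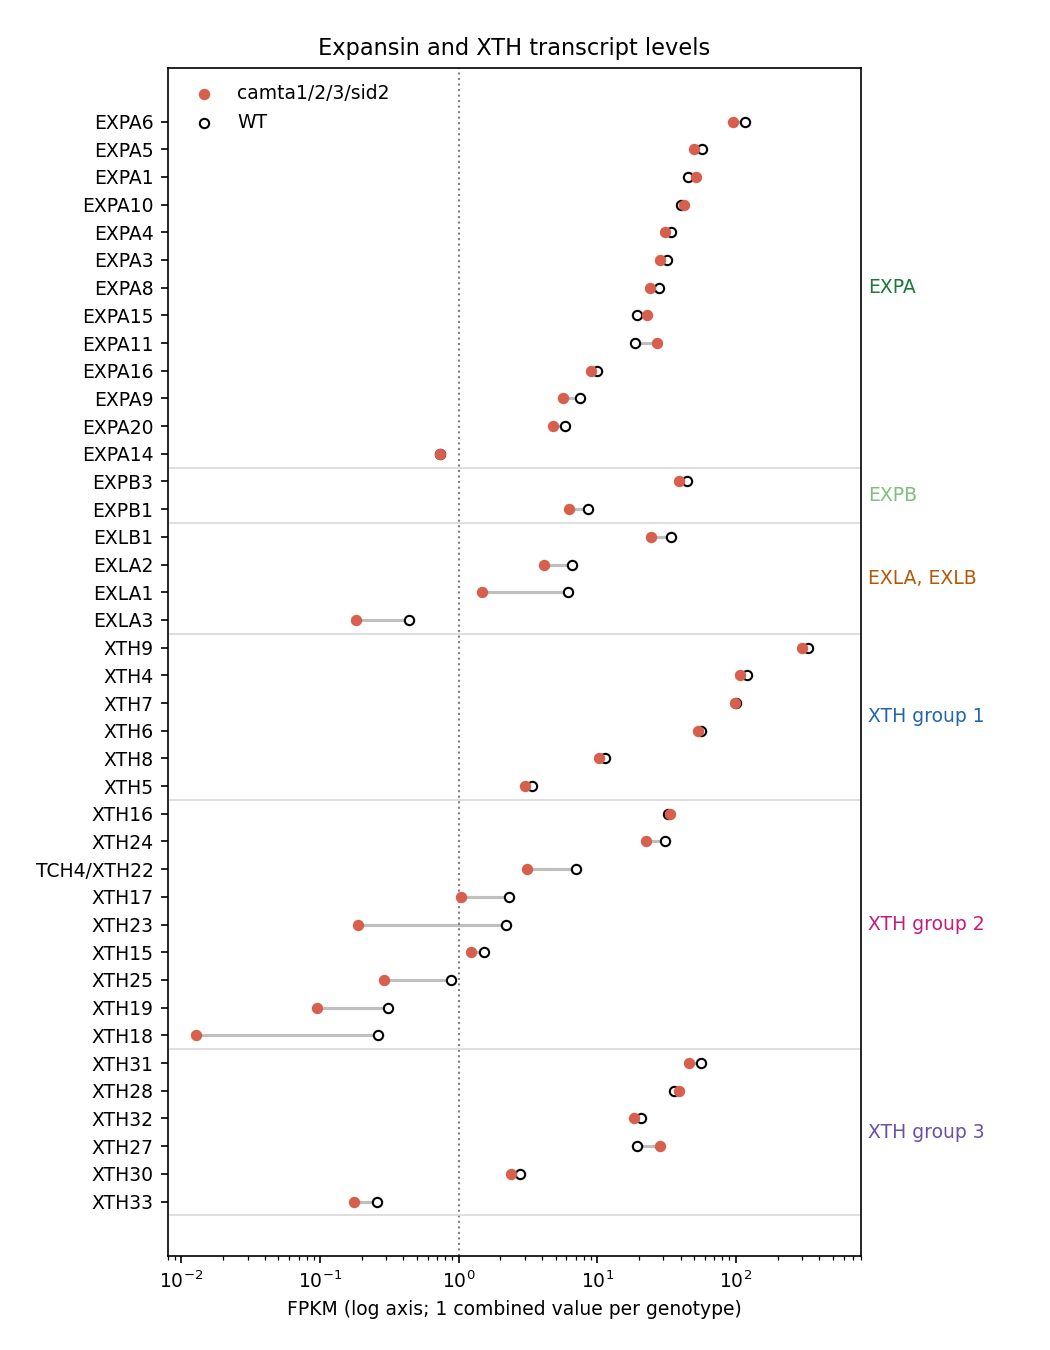
FPKM of each member above 0 in both genotypes, on a log axis, grouped by family, with filled points for camta1/2/3/sid2, open points for WT and a dotted line at 1 FPKM. The points of most members nearly coincide, and the widest gaps lie in EXLA1, XTH23 and other members of low level such as XTH18, at 0.0128 FPKM in the mutant and 0.26 in WT.

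The α-expansins (EXPA), the family to which most acid growth activity is credited, differed little. All 12 analysed EXPA genes lay within 1.5-fold. The mutant value was below that of WT in 8 and above it in 4, where 64.6% of all analysed loci were lower. The median log2 ratio of the 12 genes was -0.15. EXPA6, the EXPA gene of highest level, had 96.0 FPKM in the mutant and 116 in WT. EXPA5, a gene of the brassinosteroid growth response, had 49.7 FPKM in the mutant and 57.3 in WT. Both were lower in the mutant by a small amount, 1.20-fold for EXPA6 and 1.15-fold for EXPA5.

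EXPA1 and EXPA10 went the other way. EXPA1, which acts in guard cell walls during stomatal opening, had 52.0 FPKM in the mutant and 45.0 in WT. EXPA10, a gene of leaf and petiole growth, had 42.1 FPKM in the mutant and 40.0 in WT. EXPA15 had 23.0 FPKM in the mutant and 19.3 in WT. The expansin with the highest log2 ratio was EXPA11, at 27.0 FPKM in the mutant and 18.6 in WT. Its log2 ratio of 0.52 was exceeded by 2.21% of all analysed loci.

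The remaining EXPA genes were lower in the mutant. EXPA4 had 30.7 FPKM in the mutant and 34.0 in WT, and EXPA3 had 28.5 in the mutant and 32.0 in WT. EXPA8 had 24.0 FPKM in the mutant and 28.0 in WT, and EXPA16 had 9.07 in the mutant and 10.04 in WT. These 4 genes differed by 1.10-fold to 1.17-fold. EXPA9 showed the lowest log2 ratio of the family, -0.35, with 5.65 FPKM in the mutant and 7.50 in WT. EXPA20 had 4.83 FPKM in the mutant and 5.87 in WT. Of the 2 EXPA genes under the filter, EXPA14 had 0.731 FPKM in the mutant and 0.737 in WT, and EXPA2, known for its part in seed germination, was listed at 0 in both.

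The 2 analysed β-expansins (EXPB), relatives of the grass pollen allergens, were both lower in the mutant, as were 64.6% of all analysed loci. EXPB3 had 39.2 FPKM in the mutant and 44.5 in WT. EXPB1 had 6.23 FPKM in the mutant and 8.59 in WT, a log2 ratio of -0.41, and 4.23% of all analysed loci had a lower one.

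The expansin-like genes (EXLA and EXLB) carry both expansin domains in their sequence, but no wall-loosening activity has been assigned to them. All 3 analysed members were lower in the mutant, with a median of -0.55, where 64.6% of all analysed loci were lower. EXLA1 (AT3G45970) had 1.49 FPKM in the mutant and 6.20 in WT, which is 4.17-fold lower. Its log2 ratio of -1.53 was the lowest of all members, and 62 of the 18547 analysed loci had a lower one. EXLA2, whose loss is known to change resistance to the fungus Botrytis cinerea, had 4.16 FPKM in the mutant and 6.57 in WT. Its log2 ratio of -0.55 lay just inside the 1.5-fold mark, while its plain ratio was 1.58-fold lower. EXLB1, the expansin-like gene of highest level, had 24.6 FPKM in the mutant and 33.8 in WT. EXLA3 (AT3G45960) was under the filter, at 0.181 FPKM in the mutant and 0.437 in WT.

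EXLA1 and EXLA3 are neighbours on chromosome 3, with 2012 bases between them as RefSeq annotates the TAIR10.1 assembly. Their longest transcripts share an exact run of 57 bases, so some reads could come from either, and the sources used here do not give how such reads were divided. Both genes also carry CGCG, the core of the sequence bound by CAMTA proteins, in the 250 bases before their annotated start. The sequences of both windows are shown because they hold this core in the same surroundings, with CGCG in capitals. The EXLA1 window lies at chr3:16895916-16896165 and the EXLA3 window at chr3:16892452-16892701, both on the plus strand of TAIR10.1.
EXLA1: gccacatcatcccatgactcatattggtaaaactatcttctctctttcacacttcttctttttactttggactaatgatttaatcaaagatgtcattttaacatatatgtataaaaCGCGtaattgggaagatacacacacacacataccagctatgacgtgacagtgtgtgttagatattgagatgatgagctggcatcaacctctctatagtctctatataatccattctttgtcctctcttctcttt
EXLA3: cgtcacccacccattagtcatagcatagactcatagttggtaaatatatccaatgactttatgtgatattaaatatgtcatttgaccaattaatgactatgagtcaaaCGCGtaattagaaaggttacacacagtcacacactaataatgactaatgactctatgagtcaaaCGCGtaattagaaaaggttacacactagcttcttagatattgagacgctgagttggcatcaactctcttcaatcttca
In EXLA1 the core begins 134 bases before the start, and in EXLA3 it occurs at 142 and at 78 bases before it. Around each of the 3 cores both genes share the 12 bases aaaCGCGtaatt. The 2 copies in EXLA3 share a longer stretch of 26 bases, ctatgagtcaaaCGCGtaattagaaa. The 12 bases were picked after the windows had been read, and on either strand they occur in the windows of 5 of 27443 nuclear protein-coding genes. The 3 genes other than EXLA1 and EXLA3 were AT5G46010, which was listed at 0 in the mutant and at 0.127 FPKM in WT, AT5G60460, at 22.3 in the mutant and 27.5 in WT, and NAC103, at 0.758 in the mutant and 0.839 in WT.

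**Figure D2:**
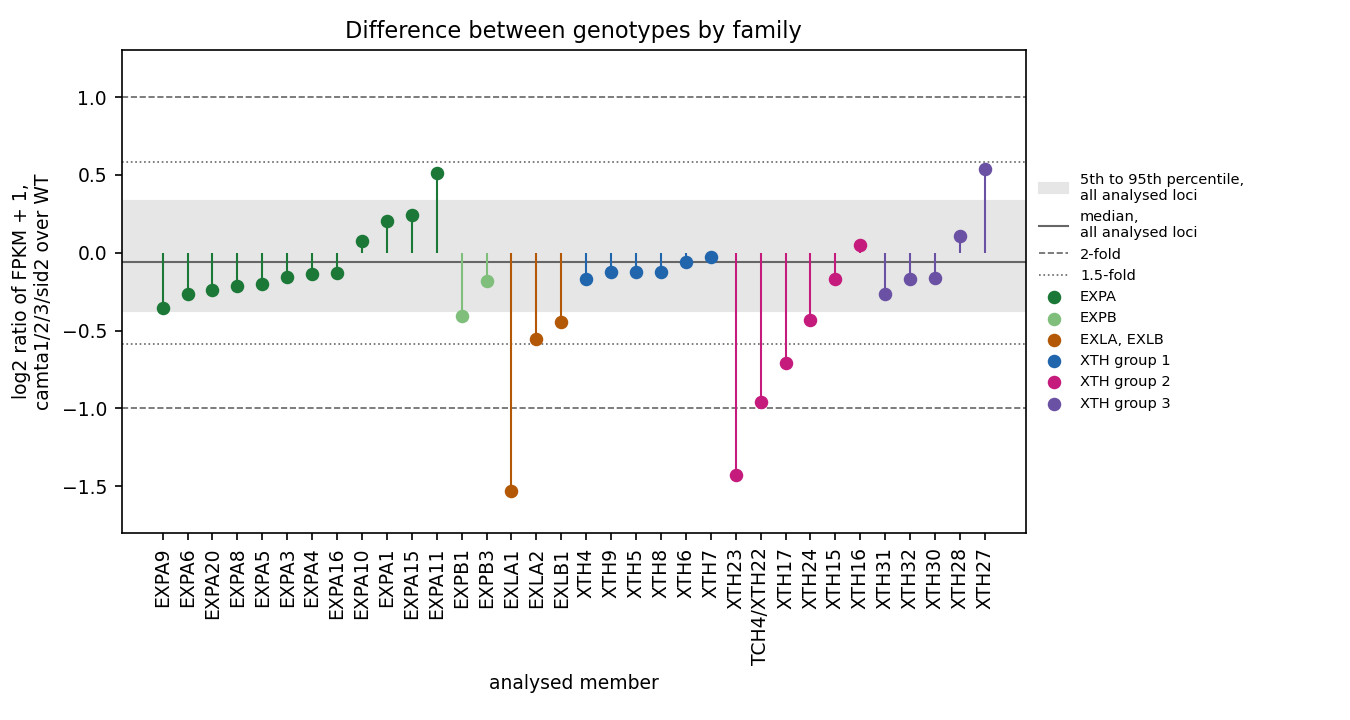
The log2 ratio of FPKM + 1, camta1/2/3/sid2 over WT, of the 34 analysed members by family, with the 5th to 95th percentile of all analysed loci in grey and the 1.5-fold and 2-fold marks as dotted and dashed lines. EXLA1 at -1.53 and XTH23 at -1.43 lie beyond the 2-fold mark, TCH4 at -0.96 and XTH17 at -0.71 beyond the 1.5-fold mark, and no member lies above the upper 1.5-fold mark.

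The XTH genes fall into 3 phylogenetic groups. Group 1 (XTH1 to XTH11) holds the XTH genes of highest level in these shoots. The 6 genes of this group among the 43, XTH4 to XTH9, lay within 1.5-fold. All 6 were lower in the mutant, with a median of -0.12, where 64.6% of all analysed loci were lower. XTH7 turned higher with ratios scaled to a median of 0. XTH9, a gene of shoot apices, had 303 FPKM in the mutant and 330.1 in WT. It alone made up 39.2% of the summed FPKM of the 23 XTH genes in the mutant and 39.6% in WT. XTH4, which acts with XTH9 in wood formation, had 107 FPKM in the mutant and 121 in WT. XTH7 had 98.6 FPKM in the mutant and 101 in WT, and XTH6 had 53.5 in the mutant and 55.9 in WT. XTH8 had 10.4 FPKM in the mutant and 11.4 in WT, and XTH5 had 3.03 in the mutant and 3.40 in WT. The folds of these 6 genes ran from 1.02-fold to 1.12-fold lower.

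Group 2 (XTH12 to XTH26) holds many genes induced by touch, shade or hormones, and here lay the XTH genes at least 1.5-fold lower in the mutant. The mutant value was lower in 5 of its 6 analysed members and at least 1.5-fold lower in 3, and the median was -0.57. Of these 3, XTH23 passed the filter of 1 FPKM through its WT value alone. Of all analysed loci, 64.6% were lower and 1.99% at least 1.5-fold lower. The latter share was 3.63% at a mean of 0.5 to 3 FPKM, where XTH17 and XTH23 lay. At 3 to 10 FPKM, where TCH4 lay, it was 1.79%. TCH4 (AT5G57560), also named XTH22, is induced within minutes by touch, and also by cold, heat, darkness, auxin and brassinosteroid. It had 3.10 FPKM in the mutant and 6.98 in WT, which is 2.25-fold lower, and 140 analysed loci had a lower log2 ratio than its -0.96. XTH23 (AT4G25810), a close relative of TCH4, had 0.189 FPKM in the mutant and 2.20 in WT. That is 11.6-fold lower by the plain ratio, while the log2 ratio, which the pseudocount of 1 pulls towards 0 at this level, was -1.43. XTH17 (AT1G65310), a gene best known from roots, had 1.03 FPKM in the mutant and 2.32 in WT, with a log2 ratio of -0.71.

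The other analysed genes of group 2 had smaller differences. XTH24, first found in meristems as MERI5B, had 22.6 FPKM in the mutant and 30.9 in WT, a log2 ratio of -0.43. XTH15, a gene of the shade response, had 1.23 FPKM in the mutant and 1.51 in WT. XTH16 was the one analysed member of the group that was not lower, at 33.5 FPKM in the mutant and 32.3 in WT. The median of the group depended on the low values: it was -0.77 with a pseudocount of 0.1 and -0.37 over the 10 members above 0 without the filter.

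A further 5 of the 43 genes, all of group 2, were under the filter. XTH25 had 0.292 FPKM in the mutant and 0.876 in WT. XTH19 had 0.0953 FPKM in the mutant and 0.309 in WT, and XTH18 had 0.0128 in the mutant and 0.26 in WT. XTH20, which with XTH19 takes part in tissue reunion after a stem is cut, was listed at 0 in the mutant and at 0.0423 FPKM in WT. XTH21 was listed at 0 in both. The number of reads behind values of this size is unknown. XTH17 to XTH20 are also alike in sequence: the longest exact run shared between transcripts was 68 bases for XTH18 and XTH19, 51 for XTH17 and XTH19 and 44 for XTH17 and XTH20. TCH4 shared at most 30 bases with any other expansin or XTH transcript and XTH23 at most 24.

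Several of these genes stand side by side on the chromosome. TCH4 and XTH25 lie on chromosome 5 with 565 bases between them, and XTH18 lies on chromosome 4 between XTH24 and XTH19. These 5 genes were lower in the mutant, and 3 of them, XTH25, XTH18 and XTH19, were under the filter. Of all loci, 64.6% of those analysed were lower, and 61.9% of those above 0 in at least 1 genotype without the filter. Of the further family neighbours, XTH13 lies 686 bases from XTH25 and XTH14 lies 363 bases from XTH23, and both were listed at 0 in both genotypes. The windows before TCH4 and XTH23 are shown because these are the XTH genes with the lowest log2 ratios, and that of XTH18 because it is the one of the 3 that holds CGCG, in capitals. They lie at chr5:23308681-23308930 on the minus strand for TCH4, chr4:13128144-13128393 on the plus strand for XTH23 and chr4:14827212-14827461 on the minus strand for XTH18, in TAIR10.1.
TCH4: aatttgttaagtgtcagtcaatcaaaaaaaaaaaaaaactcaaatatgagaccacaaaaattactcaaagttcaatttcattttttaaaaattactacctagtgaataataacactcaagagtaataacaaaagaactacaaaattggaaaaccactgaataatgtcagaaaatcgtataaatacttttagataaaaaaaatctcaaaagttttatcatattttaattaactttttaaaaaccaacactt
XTH23: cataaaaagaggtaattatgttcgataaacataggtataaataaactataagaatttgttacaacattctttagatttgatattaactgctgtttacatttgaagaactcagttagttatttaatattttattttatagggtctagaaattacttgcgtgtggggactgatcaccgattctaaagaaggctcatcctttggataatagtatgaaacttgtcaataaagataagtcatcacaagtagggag
XTH18: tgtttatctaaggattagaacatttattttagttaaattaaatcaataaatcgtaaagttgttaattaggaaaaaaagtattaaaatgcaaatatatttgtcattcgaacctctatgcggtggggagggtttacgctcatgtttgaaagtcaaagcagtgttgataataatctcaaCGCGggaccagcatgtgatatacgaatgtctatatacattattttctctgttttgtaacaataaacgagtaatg
Within 250 bases TCH4 and XTH23 held no CGCG. In XTH18 the core begins 74 bases before the start, as part of ACGCGG, which reads CCGCGT on the other strand.

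Over all 43 members, CGCG occurred on either strand in the 250-base window of 5, EXPA6, EXLA1, EXLA3, XTH18 and XTH20, which is 11.6%. Of 27443 nuclear protein-coding genes, 10.1% had it. ACGCGT occurred in EXLA1 and EXLA3 alone among the members and in 1.67% of all windows, and CCGCGT in XTH18 alone among the members and in 1.76% of all. Both longer motifs contain CGCG. The G-box CACGTG, bound by light-signalling factors such as the PIF proteins, was in none of the members' windows and in 6.49% of all. In windows of 1000 bases CGCG occurred in 11 members (25.6%), TCH4 among them, and in 32.2% of all genes. The genes with CGCG within 250 bases included EXPA6, which was 1.20-fold lower in the mutant, as well as EXLA1. Of the 4 members at least 1.5-fold lower, EXLA1 held CGCG within 250 bases and TCH4 within 1000 bases, while XTH23 and XTH17 lacked it within 1000 bases. Binding of CAMTA proteins to any of these windows was not tested.

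Group 3 (XTH27 to XTH33) went both ways, with a median of -0.16 over 5 analysed members, all within 1.5-fold. XTH27, which acts in the walls of tracheary elements in leaf veins, had 28.5 FPKM in the mutant and 19.3 in WT. Its log2 ratio of 0.54 was the highest of all members, and 2.05% of analysed loci had a higher one. XTH28, a gene of stamen growth, had 38.8 FPKM in the mutant and 35.9 in WT. The hydrolases of the group, XTH31 and XTH32, were slightly lower. XTH31, known from aluminium sensitivity of root walls, had 46.2 FPKM in the mutant and 55.8 in WT, and XTH32 had 18.3 in the mutant and 20.7 in WT. XTH30 had 2.37 FPKM in the mutant and 2.77 in WT. XTH33, which is anchored in the plasma membrane, was under the filter at 0.176 FPKM in the mutant and 0.256 in WT.

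Larger differences were found at lower levels. All 22 members with a mean of at least 10 FPKM over both genotypes lay within 1.5-fold, with 15 lower, 7 higher and a median of -0.13. Under a mean of 10 FPKM, all 12 analysed members were below WT in the mutant, 4 by 1.5-fold or more, and their median was -0.38. The same split put 1.64% of all loci at or above 10 FPKM, and 2.42% of those under it, at least 1.5-fold lower. The median over all loci was -0.053 at or above 10 FPKM and -0.070 under it. Over both levels together, 64.6% of all analysed loci were lower by any amount, and this share was not taken for each level. The boundary of 10 FPKM was set after the values had been seen. The highly expressed members dominate the totals. The summed FPKM of all 43 genes was 1241 in the mutant and 1349 in WT. Over all loci in the table the summed FPKM was also lower in the mutant, 891178 against 908640 in WT. The 43 genes held 0.139% of it in the mutant and 0.148% in WT. For the 20 expansins the sum was 469 FPKM in the mutant and 514 in WT, and for the 23 XTH genes it was 772 in the mutant and 835 in WT. The 3 leading XTH genes of WT, XTH9, XTH4 and XTH7, held 65.9% of the XTH sum in the mutant and 66.1% in WT. EXPA6, EXPA5 and EXPA1 held 42.1% of the expansin sum in the mutant and 42.4% in WT.

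**Figure D3:**
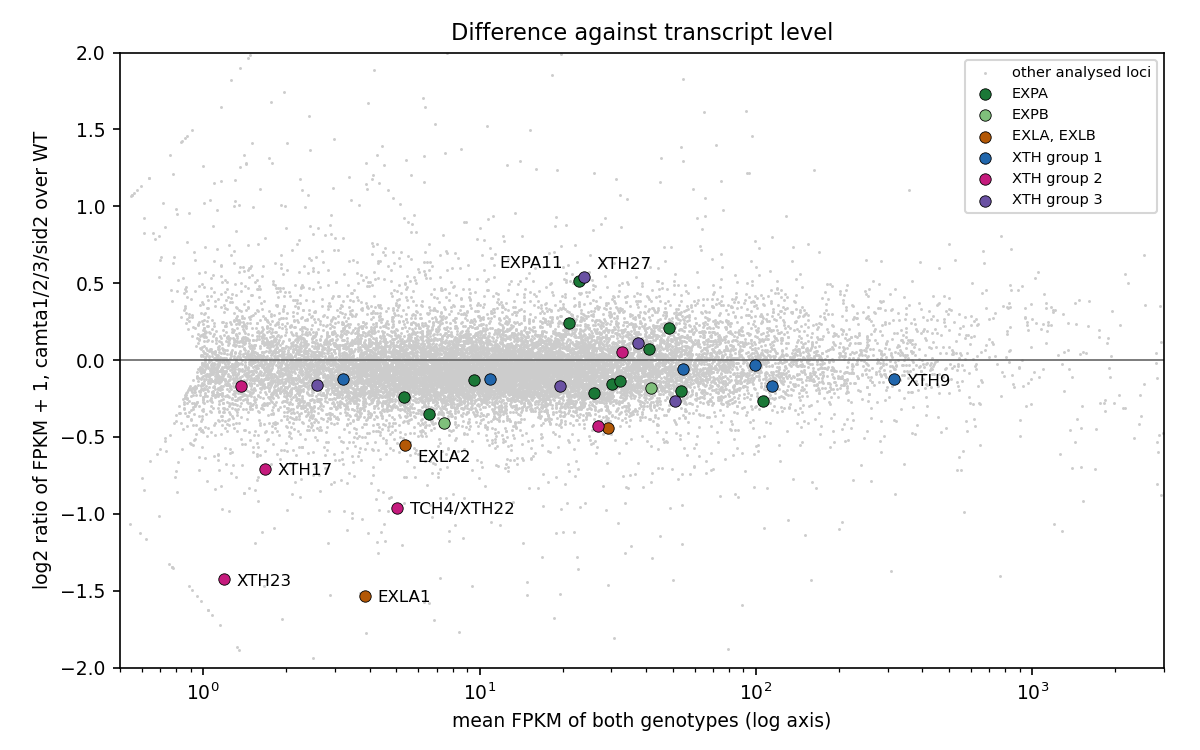
The log2 ratio of FPKM + 1, camta1/2/3/sid2 over WT, against the mean FPKM of both genotypes on a log axis, for members (coloured by family) and all other analysed loci (grey, shown between -2 and 2). The members at least 1.5-fold lower, EXLA1, XTH23, TCH4 and XTH17, all lie under a mean of 10 FPKM, while XTH9, at the highest level, has a log2 ratio of -0.13.

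Family members outside the 43 were scarcely detected. Of 16 further expansins 12 were listed at 0 in both genotypes, and EXPA13 alone passed the filter, at 13.1 FPKM in the mutant and 15.5 in WT. Of 10 further XTH genes 7 were listed at 0 in both, and XTH10 alone passed, at 1.11 FPKM in either genotype.

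The genes that make xyloglucan, the substrate of XTH enzymes, were slightly lower as a list. All 13 analysed members were lower in the mutant, as were 64.6% of all analysed loci. The list median was -0.19, against -0.06 over all analysed loci. All 13 lay within 1.5-fold, although XXT4 turned higher with ratios scaled to a median of 0. MUR3, a galactosyltransferase of xyloglucan side chains, had 9.92 FPKM in the mutant and 13.2 in WT. The fucosyltransferase FUT1 had 9.44 FPKM in the mutant and 11.6 in WT. XXT5, a xylosyltransferase, had 17.6 FPKM in the mutant and 21.3 in WT, and XXT3 had 1.05 in the mutant and 1.405 in WT. These were the 4 lowest log2 ratios of the list, from -0.38 to -0.23.

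The 3 enzymes that trim xyloglucan in the wall were lower as well, with a median of -0.30, where 64.6% of all analysed loci were lower. The α-xylosidase XYL1 had 85.7 FPKM in the mutant and 106 in WT, and the α-fucosidase FUC95A had 11.6 in the mutant and 14.9 in WT. The β-galactosidase BGAL10 had 14.2 FPKM in the mutant and 15.4 in WT. Of 3 endoglucanases, GH9B1 had 19.2 FPKM in the mutant and 25.5 in WT, and KOR1, needed for cellulose synthesis, had 94.0 in the mutant and 102 in WT. CEL2 had 5.98 FPKM in the mutant and 5.95 in WT.

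Pectin methylesterases and their inhibitors, which set the charge of wall pectin, went both ways. The mutant value was lower in 6 of 8 analysed members and higher in 2, where 64.6% of all analysed loci were lower. The list median was -0.06. With ratios scaled to a median of 0, PME5 and PME31 turned higher, which makes 4 and 4. PME41 was the one gene past 1.5-fold on the log2(FPKM + 1) scale, at 0.715 FPKM in the mutant and 1.91 in WT. Of all analysed loci, 1.99% were at least 1.5-fold lower. PME17, a gene induced by pathogens, had 1.59 FPKM in the mutant and 0.811 in WT, which is 1.96-fold higher by the plain ratio but under 1.5-fold on that scale. PME41 passed the filter of 1 FPKM through its WT value alone, and PME17 through its mutant value alone. PME35 had 16.8 FPKM in the mutant and 22.6 in WT, and PME1 had 32.5 in the mutant and 35.8 in WT.

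Genes that drive wall acidification showed no shared direction. The plasma membrane proton pumps AHA1 and AHA2 had 276 and 71.9 FPKM in the mutant, and 278 and 74.8 in WT. Of the 6 SAUR19 to SAUR24 genes, which activate these pumps, 4 were higher and 2 lower in the mutant, and SAUR24 stood at 14.6 FPKM in the mutant and 12.6 in WT. Near-identical SAUR copies can share reads. Of all 8 genes 4 were higher and 4 lower, where 64.6% of all analysed loci were lower, and their median was 0.04. Both pumps turned higher with ratios scaled to a median of 0. Of 6 growth regulators that act on expansin and XTH genes, 5 were lower and 1 higher in the mutant, against the same share of all loci. PIF4 had the lowest log2 ratio of these, -0.31, with 16.8 FPKM in the mutant and 21.0 in WT. The other 5, PIF5, BZR1, BES1, HBI1 and PRE1, had log2 ratios from -0.08 to 0.04, and BES1, HBI1 and PRE1 turned from lower to higher with the same scaling.

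TCH4 belongs to the genes first isolated as touch-induced, and the other 3 encode calmodulins or calmodulin-like proteins. CML24, also named TCH2, had 9.41 FPKM in the mutant and 24.3 in WT, and CAM2, known as TCH1, had 37.7 in the mutant and 50.9 in WT. CML12, also named TCH3, went the opposite way, at 77.9 FPKM in the mutant and 29.2 in WT. Thus 3 of the 4 touch genes were lower in the mutant and 1 was higher, where 64.6% of all analysed loci were lower.

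**Figure D4:**
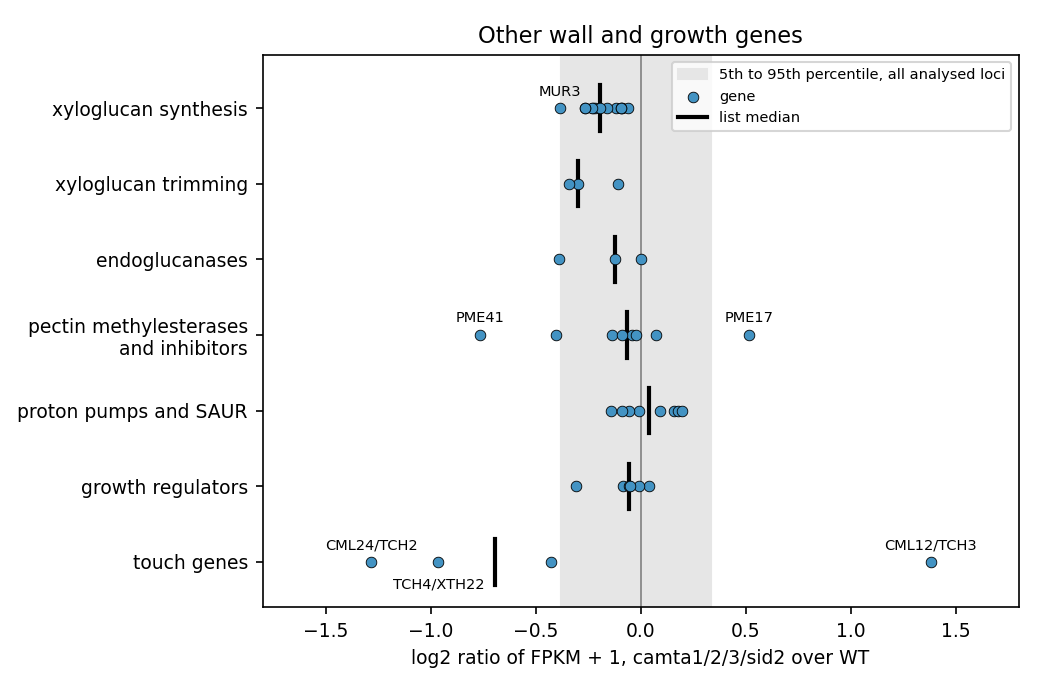
The log2 ratio of FPKM + 1, camta1/2/3/sid2 over WT, of each analysed gene in 7 further lists of wall and growth genes, with the list median as a bar and the 5th to 95th percentile of all analysed loci in grey. The xyloglucan lists sit to the left of 0 by small amounts, and the touch genes spread from -1.28 for CML24 to 1.38 for CML12.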

How the data were processed

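Messenger RNA was sequenced from 3 WT and 3 camta1/2/3/sid2 libraries, per the labels. The deposited table holds FPKM values, per the file headers, as 1 combined value per genotype and locus; the sources used here do not say how the libraries were combined. TopHat 1.4.1, Cufflinks 2.1.1, Cuffdiff and the build TAIR10 are named per the submitters' processing notes. Depth is unknown, since low values showed no steps of whole reads: of 1376 loci with nonzero values under 0.1 FPKM, at most 1.53% shared a log2 ratio to within 0.02. An exact 0 can be a failed estimate.

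FPKM is not a count, so no count model was used, and with 1 value per genotype no test was run. Log2 ratios used a pseudocount of 1 and a filter of 1 FPKM in at least 1 genotype. Members and companion lists were chosen with earlier results of these data known. All members could be named. Of companion lists, the rule named all targeted and touch genes and up to 4 genes with the highest absolute log2 ratio, and the tissue markers; further genes were chosen after their values were seen. Alternatives were pseudocounts of 0.1 and 0.5, no filter, a filter of 5 FPKM, scaling to a median of 0 or to summed FPKM, and, chosen after seeing the data, plain ratios without loci at 0. The procedure was checked on simulated data, with large differences planted in loci above 5 FPKM in WT. That check does not cover genes of lower level or the unknown replicate spread.

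Symbols and upstream sequence came from RefSeq on TAIR10.1 by locus identifier, which matched 32813 of 33557 loci and all 43 members. Windows end at the base before the annotated gene start. Motifs were counted on both strands. Protein sequences were not used here. Python 3.11.15, numpy 2.4.6, pandas 2.3.3 and matplotlib 3.10.9 were used.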

Additional observations from a re-analysis of the deposited data

How the results depend on the processing

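No paired analysis was possible because the table holds 1 combined value per genotype, and for the same reason no replicate could be left out. The median over the members analysed (34, 41 without a filter and 29 with a filter of 5 FPKM) and over the analysed expansins, EXPA, EXPB, XTH group 1 and XTH members kept its direction and moved by at most 0.1 (log2) under every alternative run. Low values set the rest. With a pseudocount of 0.1, 4 members were at least 2-fold lower in the mutant, the median of XTH group 2 was -0.77 and that of the targeted genes -1.20. With plain ratios, 4 members were at least 2-fold lower, and the medians were -0.81 for XTH group 2, -0.66 for EXLA and EXLB, -0.80 for the touch genes and -1.22 for the targeted genes. Without a filter the median of XTH group 2 was -0.37 and that of the other expansins -0.11, because more genes of low level entered. With a filter of 5 FPKM, 1 member (EXLA1) was at least 2-fold and 2 (EXLA1 and TCH4) were at least 1.5-fold lower, both of which passed that filter through WT alone, and the medians were -0.43 for XTH group 2, -0.031 for XTH group 3 and -1.57 for the targeted genes, because fewer genes were left. With ratios scaled to a median of 0, 1 member was at least 1.5-fold higher, and the median of the growth regulators turned from -0.053 to 0.0083, because every ratio was raised by the same amount. Of single members, 5 moved by more than 0.1 with a pseudocount of 0.1, 3 with 0.5 and 6 with plain ratios. No member at least 1.5-fold lower changed direction under any of these alternatives, but none of them could have changed it. A pseudocount or a filter cannot turn the direction of a single gene, and both scalings moved each member by at most 0.1 (log2). Depth and replicate spread are unknown, so the error of values under about 1 FPKM cannot be given.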
